A study of Mus musculus with 12 samples.

Results

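Keratin-associated proteins are the matrix of the hair shaft. The count file held 58 genes whose symbol begins with Krtap and a number, of 55453 genes in all, and the 57 with at least 10 counts over the 12 mice are described here. The gene left out was Krtap13, with 9 counts in total, and the lowest gene kept was Krtap20-2, with 203. RNA-Seq was performed on skin of 12 C57/BL6 mice, 3 in each of 4 groups, harvested on day 21. WT PBS and WT BLM mice were wild-type mice given PBS or bleomycin, and KO PBS and KO BLM mice were Thy1-knockout mice given the same agents. The methods describe the knockouts as females aged 8 to 12 weeks and do not state the sex or age of the WT mice. Bleomycin, a DNA-damaging drug that induces fibrosis of skin, was injected subcutaneously into the back at 10 mg/kg per day, and the design addressed how loss of Thy-1, a surface glycoprotein of fibroblasts, alters the response to it. PBS was the vehicle. The labels name no cell type to which the knockout is restricted.

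Hair keratin filaments in the cortex and cuticle of the shaft are embedded in keratin-associated proteins, which are rich in cysteine or in glycine and tyrosine. Cysteine-rich members cross-link the keratins through disulfide bonds and so harden the fiber. Their genes lie in clusters, nearly all without introns, and are transcribed late in the differentiation of matrix cells, in follicles of the growth phase of the hair cycle, anagen. Follicles in the resting phase, telogen, make no new shaft.

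The 57 genes belonged to 27 numbered subfamilies and lay on 5 chromosomes of the mouse build GRCm38.p6. The largest cluster, on chromosome 16 from 88610705 to 89571183, held 24 members, among them subfamilies 6, 7, 8, 11, 15 and 19. The cluster on chromosome 11, from 99550130 to 99993994, held 23 members, among them subfamilies 1, 3, 4, 9, 17 and 31. Subfamily 5 filled a cluster of 5 genes on chromosome 7, from 142174535 to 142304594, subfamilies 10 and 12 gave 3 genes on chromosome 10, and subfamily 28 gave 2 genes on chromosome 1. Of the 57 genes, 54 were annotated with 1 exon. By the codons of the annotated reading frames, 21 members were ultrahigh sulfur proteins with at least 30% cysteine. Of the rest, 16 were high glycine-tyrosine proteins with at least 25% of these residues together. The remaining 19 were called high sulfur without a minimum of cysteine, which ran from 4% to 29.8% among them. Because cysteine was taken first, the ultrahigh sulfur class includes Krtap5-2, Krtap5-3, Krtap17-1, Krtap28-10 and Krtap28-13. These also had at least 25% glycine, and none of them had a tyrosine codon. Krtap19-9a, annotated as a pseudogene, was given no class. Subfamily 16 joined unlike genes, since Krtap16-1 is a high sulfur gene on chromosome 11 and Krtap16-3 a high glycine-tyrosine gene on chromosome 16.

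The sequence just before the start site was a feature that many members shared. RefSeq start windows, from 250 bases before to 50 bases after the start in GRCm38.p6, were matched for 50 of the 57 genes. The letters TATAAA, the core of a TATA box, occurred on either strand in 41 of the 50 windows (82%), against 13.6% of 32851 windows of all genes. On the strand of the gene, with its first base 20 to 40 bases before the start, TATAAA stood in 31 of 50 windows (62%), against 1.99% of all windows. Searched on both strands in the same windows, CTTTGAA, the letters bound by Tcf and Lef factors, occurred in 18% of member windows and 5.14% of all windows, and GACGC, the core of forkhead N class sites, in 6% and 27.2%. The posterior Hox forms CTCGTAAA and CCAATAAA occurred in 2% and 0% of member windows, against 0.131% and 1.12% of all windows. Such a match is a description of letters and does not show that a factor binds there.

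The 100 bases before the start are shown for the leading glycine-tyrosine member with a window (Krtap8-1, chr16:89487953-89488052) and an ultrahigh sulfur member (Krtap4-1, chr11:99628240-99628339). Also shown are the genes of subfamily 3, whose levels parted from each other, Krtap3-1 (chr11:99566631-99566730), Krtap3-2 (chr11:99556854-99556953) and Krtap3-3 (chr11:99550864-99550963). Krtap5-2 (chr7:142176006-142176105) and Krtap5-3 (chr7:142201264-142201363), which parted in level from the rest of subfamily 5, are shown without those other members. Krtap5-3 is on the plus strand and the other 6 are on the minus strand. Each sequence, taken from RefSeq on GRCm38.p6, runs 5′ to 3′ on the strand of the gene, and capitals mark TATAAA.
Krtap8-1: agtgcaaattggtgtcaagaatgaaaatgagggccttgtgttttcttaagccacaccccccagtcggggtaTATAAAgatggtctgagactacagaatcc
Krtap4-1: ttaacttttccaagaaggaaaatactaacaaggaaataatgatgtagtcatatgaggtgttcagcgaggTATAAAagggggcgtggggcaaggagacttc
Krtap3-1: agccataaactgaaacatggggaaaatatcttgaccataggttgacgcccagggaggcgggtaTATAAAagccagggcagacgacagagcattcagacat
Krtap3-2: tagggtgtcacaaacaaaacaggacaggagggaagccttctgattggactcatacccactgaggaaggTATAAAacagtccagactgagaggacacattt
Krtap3-3: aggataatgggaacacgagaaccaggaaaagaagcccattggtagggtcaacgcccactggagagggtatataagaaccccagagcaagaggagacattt
Krtap5-2: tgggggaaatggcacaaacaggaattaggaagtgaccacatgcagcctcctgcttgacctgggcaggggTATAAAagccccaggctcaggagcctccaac
Krtap5-3: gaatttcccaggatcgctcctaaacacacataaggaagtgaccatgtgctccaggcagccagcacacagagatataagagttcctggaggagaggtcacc
Krtap3-3 and Krtap5-3 lacked these exact letters within the 100 bases, and the other 5 carried them 29 to 37 bases before the start.

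The family was highly abundant in WT PBS skin and nearly absent from WT BLM skin, and KO mice of both treatments ranged between these levels. Summed over the 57 genes, as counts scaled to library size (CPM), WT PBS mice 159, 160 and 161 had 7521, 26452 and 16162 CPM, and WT BLM mice 145, 146 and 147 had 6.42, 58.3 and 4.99 CPM. KO PBS mouse 136 had 19241 CPM, mouse 139 had 133 CPM and mouse 137 had 8.06 CPM. KO BLM mouse 141 had 7256 CPM, mouse 144 had 464 CPM and mouse 143 had 108 CPM. The 2 WT groups were far apart, whereas KO PBS mouse 136 lay inside the range of the WT PBS mice and KO BLM mouse 141 just below it, against their own groups. The group means were 16712 ± 9477 CPM for WT PBS, 23.2 ± 30.4 for WT BLM, 6461 ± 11068 for KO PBS and 2609 ± 4028 for KO BLM (SD, n = 3 in each), so the SD exceeded the mean in every group but WT PBS. Library totals were 26473700 to 38890450 counts. Because these libraries are from whole skin, fewer hair-forming cells and less RNA per cell cannot be told apart.

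**Figure D1:**
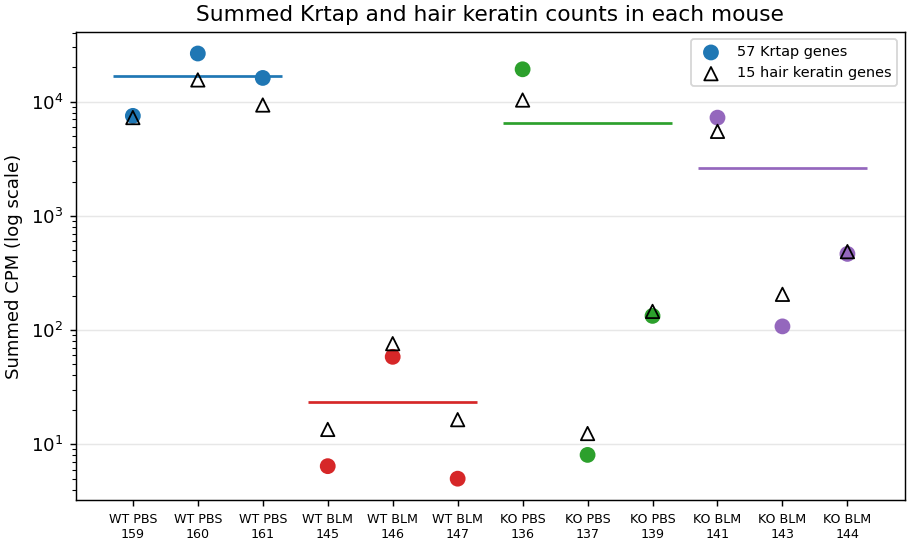
Summed CPM (vertical axis, log scale) of the 57 Krtap genes (filled circles, colored by group) and of 15 hair keratin genes (open triangles) in each of the 12 mice (horizontal axis); horizontal lines are group means of the Krtap sum. For the Krtap sum, the 3 WT PBS mice, KO PBS mouse 136 and KO BLM mouse 141 lie at 7256 CPM or above, and the other 7 mice at 464 CPM or below.

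Other hair genes set the same mice apart. The summed level of 15 hair keratin genes was 7266 to 15527 CPM among WT PBS mice, 13.5 to 76.0 CPM among WT BLM mice, 12.4 to 10347 CPM among KO PBS mice and 205 to 5501 CPM among KO BLM mice. The non-member genes with the closest correlation with the log2 Krtap sum over the 12 mice were Krt34 (Pearson r = 0.992), Sptssb (0.990), Kcne1 (0.990), Krt81 (0.988) and Bambi (0.988), a description over libraries that share the same swing in hair genes. Krt34 and Krt81 are keratins of the shaft cortex. Genes of some other cell types differed between the WT groups as well, in a comparison that called 19.8% of all genes higher and 14.1% lower in WT BLM. Of 8 skeletal muscle genes 7 rose, with summed levels of 4762 to 5382 CPM in WT PBS mice, 16243 to 33530 CPM in WT BLM mice, 6131 to 24852 CPM in KO PBS mice (lowest in mouse 136) and 9529 to 18209 CPM in KO BLM mice. Of 8 macrophage genes 7 rose, with sums of 335 to 766, 1940 to 2736, 362 to 1699 and 1297 to 1838 CPM in the same order of groups. All 8 pigment cell genes fell, with sums of 1291 to 1698 CPM in WT PBS and at most 120 CPM in WT BLM, and with 77.7 to 676 and 370 to 775 CPM in the KO groups. Of 8 genes each, 4 fibroblast and 2 epidermal genes rose and 4 genes of resting follicle stem cells fell. The epidermal share was not far from the 19.8% of all genes called higher. The stem cell sum overlapped between the WT groups, at 1322 to 1582 CPM in WT PBS and 1117 to 1712 CPM in WT BLM. The adipocyte sum did not separate the WT groups, at 822 to 1144 CPM in WT PBS and 406 to 1673 CPM in WT BLM. The part of tissue composition in the Krtap levels was not tested.

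Thy1 was counted in the KO mice as well. Its level was 104 to 150 CPM across WT PBS mice, 231 to 416 across WT BLM mice, 45.6 to 96.9 across KO PBS mice and 84.7 to 128 across KO BLM mice. Counts per gene do not show which exons were read, so they do not test the deletion.

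In WT PBS skin the 5 leading subfamilies of 27 supplied 51.4% of the family's counts, as a mean over the mice. Per kilobase of exon, Krtap7-1 (3539 ± 1867 CPM per kb, SD, n = 3) and Krtap8-1 (3520 ± 1726), high glycine-tyrosine genes and neighboring members on chromosome 16, were the highest and did not differ beyond their spread. Next came Krtap3-1 (1333 ± 893), Krtap22-2 (1244 ± 755), Krtap15 (1165 ± 764) and Krtap11-1 (1020 ± 243), whose spreads overlapped. As a mean share of the family's counts, Krtap7 held 13.6%, Krtap8 12.6%, the 7 genes of Krtap19 9.59%, the 3 of Krtap3 8.43%, Krtap11 7.23% and Krtap15 7.11%. The 3 leading subfamilies together made up 35.8%. Glycine-tyrosine genes took 43.0% to 46.3% of the counts of each WT PBS mouse, high sulfur genes 38.0% to 42.4% and ultrahigh sulfur genes 12.9% to 15.2%. At the low end of the per-kilobase order were Krtap29-1 (8.32 ± 1.64), Krtap4-13 (7.43 ± 5.23) and Krtap20-2 (1.80 ± 1.84).

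**Figure D2:**
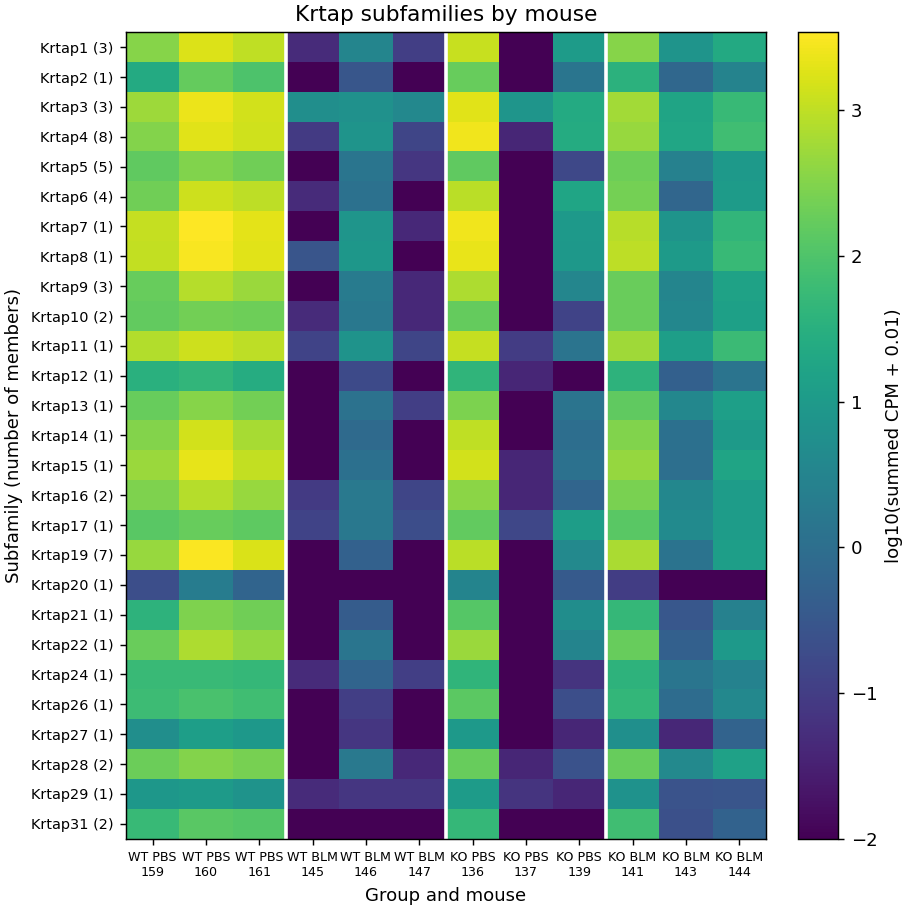
Summed level of each Krtap subfamily (rows, with the number of members in parentheses) in each mouse (columns, grouped), as log10 of CPM plus 0.01. Columns of the WT PBS mice, KO PBS mouse 136 and KO BLM mouse 141 are bright across nearly all rows, and KO PBS mouse 139 has its own pattern. In WT BLM mice 145 and 147 and KO PBS mouse 137 Krtap3 is highest, at 5.56, 3.84 and 7.63 CPM. All other subfamilies are at 0.274 CPM or below there.

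Most of the family fell with bleomycin in WT mice. All 57 members passed the filter on low counts and had a lower fitted level in WT BLM than in WT PBS, and 48 of the 57 (84.2%) passed an adjusted p of 0.05 in edgeR's quasi-likelihood test with Benjamini-Hochberg adjustment, against 14.1% of the 18311 genes tested that were called lower. Where genes are counted here as having fallen or risen, they were called at this threshold. The ranges of the 2 groups did not overlap for any member (57 of 57), against 28.7% of all genes that were lower without overlap. The median log2 fold change of the members was -9.44, from -16.35 to -6.14, against 0.018 over all genes. The adjusted p-values lay in a narrow band from 0.0116 to 0.0650. The spread behind them was estimated from all 12 mice, KO mice included. Without KO PBS mouse 136 they ran from 0.00125 to 0.0208 and 57 members were called lower, where 45.7% of all genes were called in either direction. DESeq2 gave an adjusted p for 52 members and called 52 lower, where 15% of genes were called lower. Without any 1 of the 6 WT mice, 1 to 4 members were called, in fits that called 13.9% to 21.5% of all genes in either direction. The median log2 fold change remained between -13.82 and -8.92 when any 1 of the 12 mice was left out.

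The glycine-tyrosine genes that led the family carried large changes with large errors. Krtap7-1 was at 1148, 3442 and 2005 CPM in WT PBS mice 159, 160 and 161, at 0, 7.79 and 0.0328 CPM in WT BLM mice 145, 146 and 147, at 2651, 0 and 9.77 CPM in KO PBS mice 136, 137 and 139, and at 865, 7.19 and 43.2 CPM in KO BLM mice 141, 143 and 144. Its WT groups were well apart, and each KO group held 1 mouse near the WT PBS level. The change in WT mice was -9.71 on the log2 scale (standard error, SE, 3.64, adjusted p = 0.0607), short of the threshold. Krtap8-1 likewise changed by -9.43 (SE 3.48, adjusted p = 0.0578). Of the 16 glycine-tyrosine genes 13 passed the threshold and all 16 were lower, with a median log2 fold change of -11.20.

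In subfamily 19, glycine-tyrosine genes of chromosome 16, all 7 members fell, with a median log2 fold change of -13.28. Krtap19-2 was at 78.6, 602 and 313 CPM in the 3 WT PBS mice and had 0 counts in each WT BLM mouse. Set against 3 counts over the WT BLM group, it was at least 9588-fold lower, Krtap19-4 at least 5918-fold lower and Krtap19-1 at least 3041-fold lower. Krtap19-5 had 38258 counts in WT PBS and 3 in WT BLM, a ratio of 11143 with an exact interval from 3813 to 54034 that covers counting error only. In all, 7 members had 0 counts in every WT BLM mouse, and the median log2 fold change with these at their bound was -9.43. The 4 genes of Krtap6 also fell, among them Krtap6-5 (-11.07), as did Krtap21-1, Krtap22-2 and Krtap16-3.

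Of 19 high sulfur genes, 16 passed the threshold and all 19 were lower, with a median of -9.14. The 3 genes of Krtap3 were among those that passed. Other members that led their subfamily and fell were Krtap26-1 (-10.88), Krtap1-5 (-10.41), Krtap2-4 (-9.84), Krtap9-3 (-9.84), Krtap13-1 (-9.08), Krtap27-1 (-8.41), Krtap24-1 (-7.74) and Krtap29-1 (-7.12). Krtap31-1 had 0 counts in WT BLM and was at least 1400-fold lower, but missed the threshold (adjusted p = 0.0569). Krtap15 was at 509, 2095 and 1072 CPM in WT PBS and at 0, 1.11 and 0 CPM in WT BLM (log2 fold change -11.65, SE 3.86, adjusted p = 0.0416). Krtap11-1, placed at the end of the chromosome 16 cluster, was the steadiest of the abundant members in WT PBS, at 804, 1290 and 990 CPM, and in WT BLM it was at 0.117, 7.01 and 0.131 CPM. Its change of -8.72 (SE 3.16, adjusted p = 0.0547) missed the threshold. Krtap14, which overlaps Krtap15 on the opposite strand, also fell (-11.46, adjusted p = 0.0408), and since the use of strand in the counting is not stated their reads may not be separable.

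Of 21 ultrahigh sulfur genes, 18 passed the threshold and all 21 were lower, with a median of -8.68. Of the 8 Krtap4 genes 6 fell, from Krtap4-1 at -10.08 (adjusted p = 0.0303) to Krtap4-8 at -7.25 (adjusted p = 0.0487), with the most abundant, Krtap4-7, at -9.00 (adjusted p = 0.0357), while Krtap4-9 and Krtap4-13 had adjusted p-values of 0.0542 and 0.0636. Krtap17-1, a gene of the chromosome 11 cluster, was at 132, 179 and 147 CPM in WT PBS and at 0.117, 1.66 and 0.197 CPM in WT BLM mice (log2 fold change -7.82, SE 2.22, adjusted p = 0.0254). Its groups were apart by a wide margin and its WT PBS mice lay close together. Krtap28-10, Krtap28-13, Krtap10-4, Krtap10-10 and the high sulfur gene Krtap12-1 fell as well, with log2 fold changes from -9.14 to -8.14. The smallest adjusted p of the family belonged to Krtap5-2 (log2 fold change -7.83, adjusted p = 0.0116), which stayed past the threshold in each of the 6 fits that left out a WT mouse.

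Genes that work beside the Krtap family in the follicle were compared in the same way, against 14.1% of all genes called lower. Of 15 hair keratin genes 11 fell, with a median log2 fold change of -8.51, among them Krt34 (-9.76, adjusted p = 0.0483) and the most abundant, Krt83 (-9.28, adjusted p = 0.0413). Of 10 regulators of the hair matrix 9 fell, among them the most abundant, Dlx3 (-4.0, adjusted p = 0.0182), and Hoxc13 (-4.72, adjusted p = 0.00978), Msx2 (-5.17, adjusted p = 0.0110), Lef1 (-4.63, adjusted p = 0.0108) and Foxn1 (-3.25, adjusted p = 0.0254), transcription factors of the shaft-forming cells. Gata3, the tenth, was at -0.76 (adjusted p = 0.0703). Of 7 genes of shaft hardening and adhesion 3 fell, including S100a3, a cuticle calcium-binding protein (-7.37, adjusted p = 0.0434). Of 8 inner root sheath genes 1, Krt28, passed (-7.10, adjusted p = 0.0402), a share no higher than that of all genes. The median log2 fold change of these 8 was still -7.35, and their sum was 42553 to 57591 CPM in WT PBS and 24.8 to 752 CPM in WT BLM. Tchh, the most abundant inner root sheath gene, was at -7.81 (adjusted p = 0.0521). Of the 40 genes in these lists, DESeq2 gave an adjusted p for 22 in this comparison. It called 21 of them lower, against 15% of its genes. In each of the other 4 tests none of these 40 genes passed in edgeR (0 genes). At an unadjusted p under 0.05 there were 0 in KO BLM against KO PBS, 1 lower in KO PBS against WT PBS, 24 higher in KO BLM against WT BLM and 21 higher in the difference of responses, and DESeq2, which gave an adjusted p for 22 of them, called 0, 0, 6 and 8.

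In KO mice no member was called between KO BLM and KO PBS by edgeR (0 of 57). Of all genes, edgeR called 0.251% higher and 0.0546% lower. At an unadjusted p under 0.05, 2 members were higher (11.6% of all genes) and 1 lower (8.45%), and DESeq2 called 0 of 52, against 3.49% of its genes higher and 2.66% lower. The members' median log2 fold change was -1.13, against -0.0070 over all genes, with a median standard error of 2.02. The spread within the groups was far larger than this difference, as mouse 136 and mouse 141 each stood 1 to 3 orders of magnitude above the other mice of their group. Without KO PBS mouse 136 the median became 7.09 and 14 members were higher in KO BLM, where 14% of all genes were called in either direction. Without KO BLM mouse 141 the median was -4.66 and 1 member, Krtap5-2, was higher, where 6.19% of all genes were called. The direction of the median thus turned when mouse 136 was left out, and kept its sign without mouse 141.

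Between the PBS groups, no member was called in edgeR's test (0 of 57), where 0.0273% of all genes were called lower and 0.0382% higher. At an unadjusted p under 0.05, 2 members were lower (7.75% of all genes), and DESeq2 called 0 of 52 (1.61% of its genes lower and 2.7% higher). The median log2 fold change of KO PBS against WT PBS was -1.43. Of the 57 members, 8 (14%) lay lower in all 3 KO PBS mice than in any WT PBS mouse, a share near the 10.3% of all genes. They were Krtap5-2, Krtap5-3, Krtap9-5, Krtap19-1, Krtap19-4, Krtap24-1, Krtap28-10 and Krtap31-2. Mice 137 and 139 lay below the WT PBS range for 57 and 56 members, so mouse 136 alone decided which 8 these were. Without mouse 136 the median was -9.41 and 49 members were called lower, where 36.7% of all genes were called in either direction.

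Between the bleomycin groups, which include the WT BLM mice of the first comparison, all 57 members had a higher fitted level in KO BLM, with a median log2 fold change of 6.95. This median was 4.0 without KO BLM mouse 141 and 11.63 without WT BLM mouse 146. None passed the threshold in edgeR (0 of 57, 46 higher at an unadjusted p under 0.05, against 8% of all genes), where 0.0546% of all genes were called higher, and DESeq2 called 16 of 52 higher, against 1.92% of its genes. The groups did not overlap for 43 members, higher in KO BLM, against 14.6% of all genes. Krtap8-1 showed this, with 947, 10.5 and 53.4 CPM in KO BLM mice 141, 143 and 144 and 0.274, 8.48 and 0 CPM in the WT BLM mice. WT BLM mouse 146 and KO BLM mouse 143 lay close together. The difference of responses, KO minus WT, which uses all 4 groups, had a median of 8.67 and again 0 members past edgeR's threshold (smallest adjusted p = 0.0702, 42 higher at an unadjusted p under 0.05, against 13.6% of all genes, and 19 of 52 with DESeq2). No gene of the 18311 was called higher in that test by edgeR (0%), and 7.18% were by DESeq2. Without KO PBS mouse 136, 56 members were called higher, where 39.9% of all genes were called in either direction, and the median was 16.45. It was 13.05 without WT BLM mouse 146 and 5.24 without KO BLM mouse 141.

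The make-up of the family's counts differed among mice as well as its level. Genes of the clusters on chromosomes 1, 7 and 10, that is subfamilies 28, 5, 10 and 12, made up 7.20%, 3.44% and 4.26% of the Krtap counts of WT PBS mice 159, 160 and 161. They made up 8.27%, 10.2% and 8.51% in KO BLM mice 141, 143 and 144, and 8.56% in WT BLM mouse 146. The share was 2.85% in KO PBS mouse 136 and 0.381% in KO PBS mouse 139, where these 10 genes had 17 of 4464 counts. The KO BLM mice thus lay above all WT PBS mice and both of these KO PBS mice, by more than counting error (95% Wilson intervals), with 3 or fewer mice a group and no test across mice. WT BLM mice 145 and 147 and KO PBS mouse 137 had 282 Krtap counts or fewer and are left out of this comparison.

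**Figure D3:**
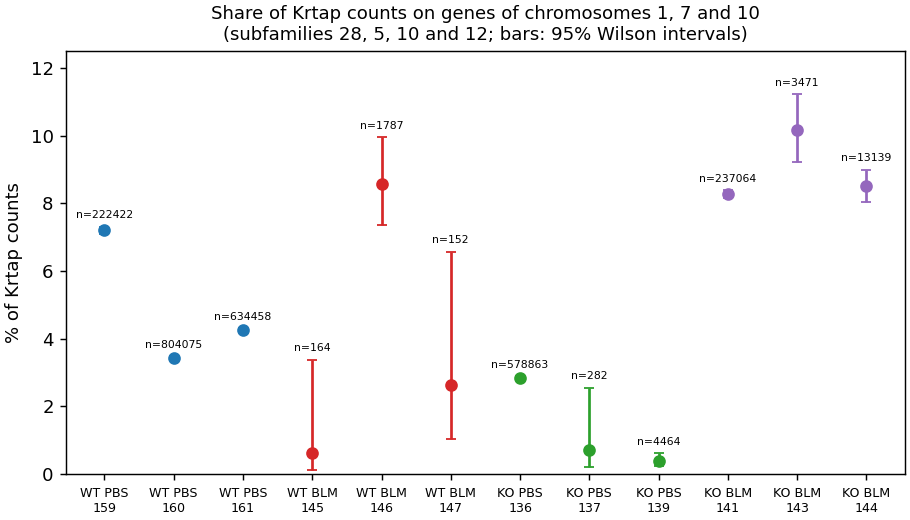
Percent of Krtap counts (vertical axis) on the 10 genes of chromosomes 1, 7 and 10 in each mouse (horizontal axis), with 95% Wilson intervals for counting error and the number of Krtap counts printed above each point. KO BLM mice lie between 8.27% and 10.2%, and KO PBS mouse 139 at 0.381%.

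KO PBS mouse 139 had a profile of its own. Its most counted members were Krtap3-1 (497 counts), Krtap17-1 (397) and Krtap1-5 (370), whereas the WT PBS mice were led by Krtap7-1 and Krtap8-1, and WT BLM mouse 146 and KO BLM mice 143 and 144 by Krtap8-1 or Krtap11-1. Krtap11-1 made up 0.986% of the family's counts in mouse 139, against 4.88% to 10.7% in the WT PBS mice. Subfamily 6 made up 13.3% in mouse 139 and 0.605% in KO BLM mouse 143. At like family levels, 133 CPM in mouse 139 and 108 CPM in mouse 143, these 2 mice held Krtap transcripts in different proportions.

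Krtap3-2 was the member that remained where the family was lowest. WT BLM mice 145 and 147 and KO PBS mouse 137 had 125, 109 and 260 counts of it, which was 76.2%, 71.7% and 92.2% of all their Krtap counts. Its level there, 4.89, 3.58 and 7.43 CPM, was close to that in WT BLM mouse 146 (2.22 CPM), KO PBS mouse 139 (6.88 CPM) and KO BLM mouse 143 (5.49 CPM), whose family sums were much larger. Krtap3-1, a neighbor in the chromosome 11 cluster, was at 0.0392, 0 and 0.114 CPM in mice 145, 147 and 137, and Krtap3-3 at 0.626, 0.262 and 0.0857 CPM. In WT PBS mice Krtap3-2 was at 73.9, 413 and 263 CPM, below Krtap3-1 and Krtap3-3 in each mouse. It fell in WT BLM by 6.14 on the log2 scale (SE 1.84, adjusted p = 0.0301), the smallest change of any member in edgeR's fit. Of its 50-base windows 28.9% also occur in Krtap3-3 or Krtap3-1, so some reads may not be assignable to 1 gene.

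**Figure D4:**
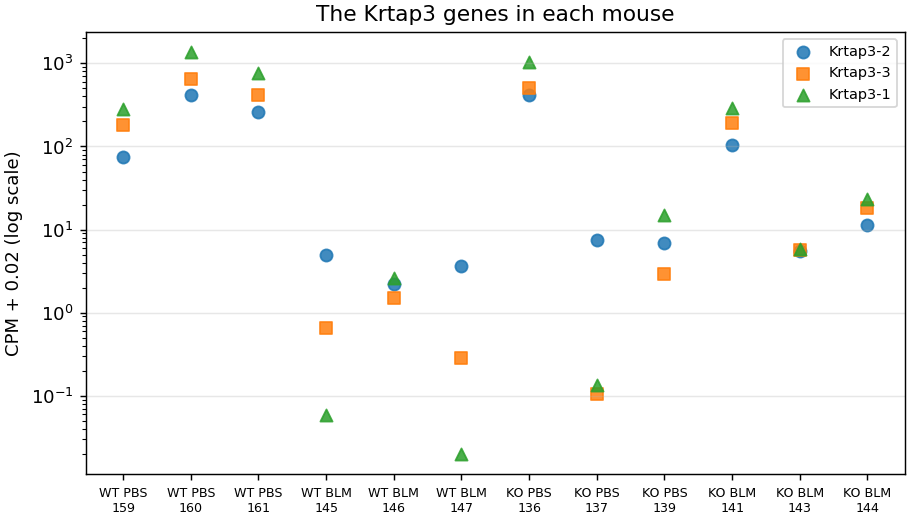
CPM plus 0.02 (vertical axis, log scale) of Krtap3-1, Krtap3-2 and Krtap3-3 in each mouse (horizontal axis). Krtap3-2 lies below both neighbors in the WT PBS mice and above both in WT BLM mice 145 and 147 and KO PBS mouse 137.

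KO PBS mouse 136 had a family sum like that of WT PBS mice, with some members above or below their range. Of the 57 genes 34 lay within the range of the 3 WT PBS mice, 15 above it and 8 below it. Those above included 7 of the 8 Krtap4 genes, with Krtap4-13, Krtap4-9 and Krtap4-8 at 6.73, 5.54 and 4.97 times the WT PBS mean CPM, and Krtap1-3 and Krtap1-4 at 2.72 and 2.86 times. The others above were Krtap2-4, Krtap3-2, Krtap9-1, Krtap20-2, Krtap26-1 and Krtap29-1. Some margins were small, as Krtap3-2 was at 415 CPM against at most 413 in WT PBS, and Krtap29-1 at 10.9 against 10.2. Krtap4-13 shares 81.3% of its 50-base windows with other genes, Krtap4-8 33.4% and Krtap4-9 17.1%. Krtap4-16, which shares none, was at 2.40 times. Among genes below the range were Krtap19-1 (0.186 times), Krtap9-5 (0.278) and Krtap31-2 (0.293). In KO BLM mouse 141, 37 members were within the WT PBS range, 18 below it and 2 above it, Krtap5-2 and Krtap5-3. These 2 were at 72.6 and 28.7 CPM, against at most 61.4 and 26.2 CPM in WT PBS. The share of all genes outside this range of 3 mice was not computed for mouse 136 or 141. Whether members lay outside it more often than other genes was therefore not tested.

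**Figure D5:**
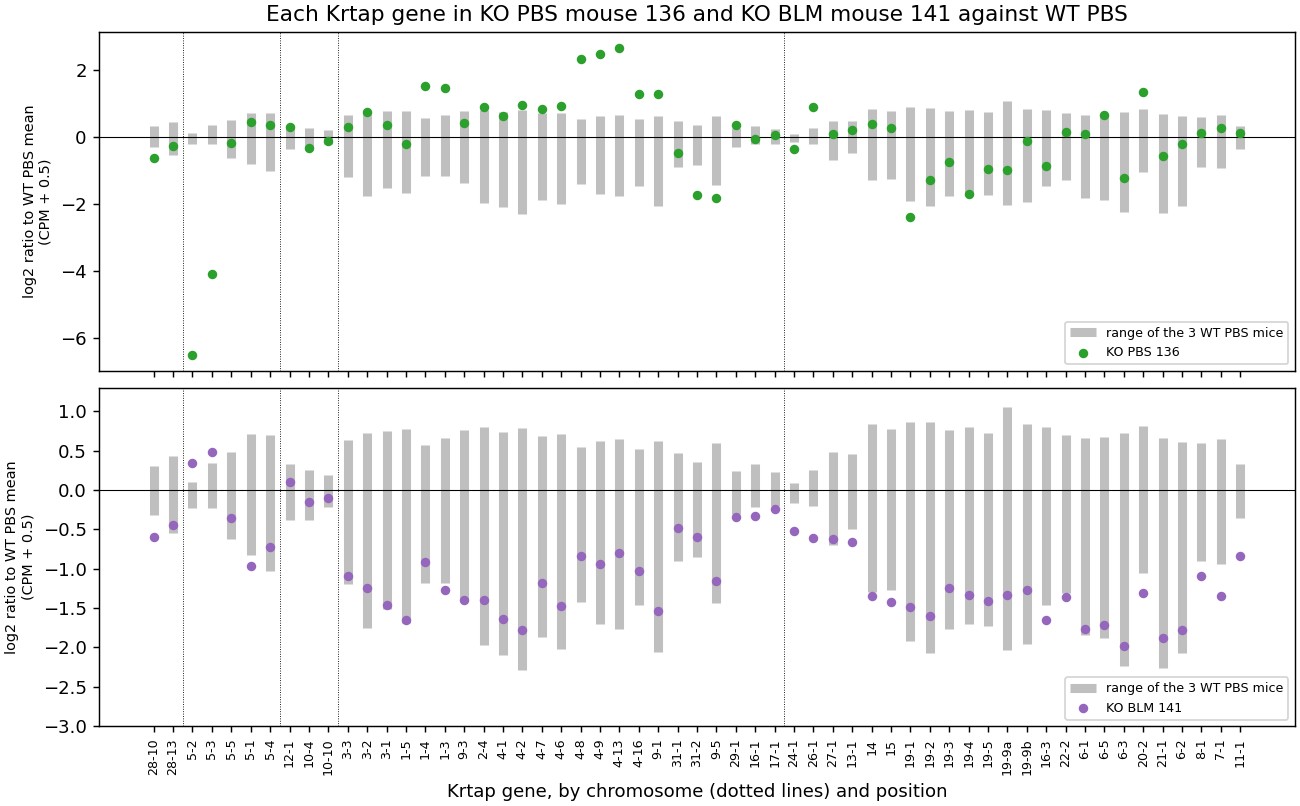
Log2 ratio of each Krtap gene to the WT PBS mean, after adding 0.5 CPM (vertical axis), in KO PBS mouse 136 (upper panel) and KO BLM mouse 141 (lower panel, with a narrower scale), with genes ordered by chromosome and position (horizontal axis) and gray bars for the range of the 3 WT PBS mice. Krtap5-2 and Krtap5-3 lie far below the bars in mouse 136 and above them in mouse 141, and most Krtap4 genes lie above the bars in mouse 136.

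Krtap5-2 and Krtap5-3 parted most sharply from the rest of the family. Krtap5-2 had 1448, 1867 and 2402 counts in WT PBS mice 159, 160 and 161, 4 in KO PBS mouse 136 and 2373 in KO BLM mouse 141. Krtap5-3 had 514, 797 and 702 counts in the WT PBS mice, 22 in mouse 136 and 939 in mouse 141. Mouse 136 was thus at 0.00232 and 0.0357 times the WT PBS mean CPM for these genes. The model gene Gm10153, which shares 50-base windows with both, had 122 to 254 counts in WT PBS, 0 in mouse 136 and 237 in mouse 141. Another model gene of the cluster, Gm4553, had 762 counts in mouse 136, below the 1480 to 3367 counts of the WT PBS mice. Krtap5-5 and Krtap5-4, at 75.8 and 63.0 CPM in mouse 136, lay within the WT PBS ranges of 55.6 to 121 and 23.9 to 80.5 CPM, as did Krtap5-1. Windows shared with other genes made up 28.6% of Krtap5-2 and 7.30% of Krtap5-3.

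For the KO groups as a whole, Krtap5-2 was at 0.133, 0 and 0.0596 CPM in KO PBS mice 136, 137 and 139 and at 72.6, 0.899 and 4.49 CPM in KO BLM mice 141, 143 and 144. It was the 1 member whose KO groups did not overlap, higher in KO BLM, against 10.8% of all genes (log2 fold change 8.64, SE 1.96, adjusted p = 0.0897). Its difference of responses was 16.46 (SE 2.63, adjusted p = 0.0702), and neither passed edgeR's threshold. DESeq2 gave no adjusted p for Krtap5-2 or Krtap5-3. Over the 12 mice, the correlation of log2 CPM with the sum of the other members was 0.799 for Krtap5-2, 0.888 for Krtap3-2 and 0.893 for Krtap5-3, the 3 lowest among members with a mean of at least 1 CPM.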

How the data were processed

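RNA-Seq of skin from 12 mice was used. The authors prepared stranded mRNA libraries and deposited 1 table of raw read counts per gene, not normalized, with 12 columns headed by mouse number, and tested it with DESeq2. The submitters' processing notes name the build GRCm38.p6 and MultiQC 1.7. The aligner, counting tool and use of strand are not given in the sources used here. Counts were tested with edgeR 4.0.16 (TMM normalization, filterByExpr, quasi-likelihood F test, R 4.3.3) in 1 model of the 4 groups, with 2-sided p-values adjusted by Benjamini-Hochberg over the 18311 genes that passed the filter and a threshold of 0.05. The common biological coefficient of variation was 34.9%. CPM used TMM-scaled library sizes. Tests were tried on simulated counts first.

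The members, companion gene lists and tests were chosen with earlier results of these data known. The naming rule took the member of each subfamily with the highest mean CPM, members with extreme fold changes, those highest outside WT PBS, those least correlated with the family and the most abundant genes of each companion list, not all of which are printed. Other genes and the shares by chromosome were singled out after their values were seen. Positions came from GENCODE M21 and start windows from RefSeq. Sharing was the percent of 50-base windows of a transcript found in transcripts of other genes. Intervals and floors cover counting error only. Alternatives were DESeq2 1.42.0, RLE and upper-quartile normalization, no low-count filter, only the groups compared, members with 100 or more counts, raw library totals and leaving out each mouse.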

Additional observations from a re-analysis of the deposited data

Results flagged for a closer look

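The groups of Krtap5-2 were ordered in opposite ways in the 2 genotypes. In WT mice all 3 BLM mice lay below all PBS mice, with a log2 fold change of -7.83, and in KO mice all 3 BLM mice lay above all PBS mice, with 8.64, on KO PBS counts of 4, 0 and 2, and without passing the threshold (edgeR adjusted p = 0.0897). The test of the difference itself gave an adjusted p of 0.0702 in edgeR, which missed the threshold.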

How the results depend on the processing

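RLE and upper-quartile normalization left every count of called members within 1.5 times of its value and turned no direction. Among the counts of called members, DESeq2 gave 16 in KO BLM against WT BLM and 19 in the difference of responses. No low-count filter gave 1 in KO BLM against KO PBS and 1 in the difference, and a model of only the groups compared gave 1 in KO PBS against WT PBS, each time Krtap5-2. When any 1 mouse was left out, the number called ranged from 1 to 57 in WT BLM against WT PBS, from 0 to 14 in KO BLM against KO PBS, from 0 to 49 in KO PBS against WT PBS, from 0 to 16 in KO BLM against WT BLM and from 0 to 56 in the difference. In the WT comparison it was 4, 2 and 3 without WT PBS mice 159, 160 and 161, and 1, 3 and 1 without WT BLM mice 145, 146 and 147. Leaving out KO PBS mouse 136 gave the upper end of every range, and leaving out KO PBS mouse 137 also gave 57 in the WT comparison. Without mouse 136, 45.7% of all genes were called in the WT comparison. In the other 4, in the order above, 14%, 36.7%, 6.89% and 39.9% were called. Leaving out mouse 136 also turned the median in KO BLM against KO PBS to 7.09. That median was -4.66 without KO BLM mouse 141. The group means of the summed CPM ranged from 11842 to 21307 in WT PBS, 5.70 to 32.3 in WT BLM, 70.5 to 9687 in KO PBS and 286 to 3860 in KO BLM. The cause was not tested. No paired analysis was possible because each mouse has a number of its own. Counts under 10 in the low mice limit what their shares can show.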
